A study of Mus musculus with 12 samples.

Results

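Feedback inhibitors of JAK-STAT signalling, represented by the 5 genes Socs1, Socs3, Cish, Ptpn2 and Usp18, were followed through 4 chromatin marks. They were taken by name from a table of 25507 gene windows under 25450 gene names, and each of the 5 had 1 window. The cells were KPC1199, a line of murine pancreatic ductal adenocarcinoma cells labelled as C57BL/6 cultured pancreatic tumor cells. CUT&Tag, in which a transposase tethered to an antibody tags the DNA next to a mark, was run for H3K4me3, H3K27Ac, H3K27me3 and H2A119Ub in 3 cell states. The first state was untreated cells of any PD-L1 level, the second cells exposed to IFN-gamma at 10 ng/ml, again of any PD-L1 level and called unselected treated cells here, and the third PD-L1 high cells exposed to the same dose. All 12 libraries come from this 1 line, with 1 library for each mark and state, so no difference between states has a replicate check and none is tested. Whether the line is 1 clone, how long IFN-gamma was given and how PD-L1 high cells were selected is not stated in the labels. Unselected treated cells can include PD-L1 high cells, in a share the labels do not give. Ratios of PD-L1 high to unselected treated cells may thus set a part against a whole that contains such cells.

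JAK kinases bound to cytokine receptors phosphorylate STAT factors, which enter the nucleus and switch on target genes. STAT dimers bind the GAS element, whereas type I interferons also form a complex of STAT factors with IRF9 that binds the ISRE element, as do IRF factors such as IRF1. Several of the induced genes encode proteins that shut the signal down again. SOCS1 inhibits the JAK kinases directly, SOCS3 does so chiefly at receptors of the IL-6 family, and CISH, a STAT5 target of the same SH2-domain family, acts at receptors such as those for IL-2 and growth hormone. PTPN2 is a tyrosine phosphatase that removes phosphate from JAK1 and from STAT factors. USP18 strips the ubiquitin-like protein ISG15 from its targets and, apart from that activity, blocks type I interferon receptor signalling.

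GAS and ISRE elements are where STAT and IRF factors read the cytokine signal into genes. The RefSeq promoter set used here held no entry for Ptpn2 or Usp18, which were therefore not searched. Shown are the promoters of the 3 SH2-domain genes. Each runs from 250 bases before to 50 bases after the RefSeq start on GRCm38.p6, the assembly known as mm10, and is written 5′ to 3′ on the strand of the gene. Capitals mark GAS letters, TTCNNNGAA, and ISRE-type letters, GAAA followed by any 2 bases and a second GAAA, both searched on both strands. Socs1 lies at chr16:10785487-10785786 on the minus strand, Socs3 at chr11:117969317-117969616 on the minus strand, and Cish at chr9:107296409-107296708 on the plus strand.
Socs1: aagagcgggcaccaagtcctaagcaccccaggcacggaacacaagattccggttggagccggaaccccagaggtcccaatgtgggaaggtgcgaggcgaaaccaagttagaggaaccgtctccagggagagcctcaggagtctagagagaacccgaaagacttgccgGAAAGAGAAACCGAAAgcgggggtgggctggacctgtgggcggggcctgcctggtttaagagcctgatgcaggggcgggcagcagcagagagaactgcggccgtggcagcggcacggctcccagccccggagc
Socs3: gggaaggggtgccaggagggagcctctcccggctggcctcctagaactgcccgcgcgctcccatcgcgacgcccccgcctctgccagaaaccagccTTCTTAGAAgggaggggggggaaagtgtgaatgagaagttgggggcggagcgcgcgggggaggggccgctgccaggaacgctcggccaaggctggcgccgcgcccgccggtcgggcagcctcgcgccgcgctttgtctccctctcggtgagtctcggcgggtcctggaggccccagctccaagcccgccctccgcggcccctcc
Cish: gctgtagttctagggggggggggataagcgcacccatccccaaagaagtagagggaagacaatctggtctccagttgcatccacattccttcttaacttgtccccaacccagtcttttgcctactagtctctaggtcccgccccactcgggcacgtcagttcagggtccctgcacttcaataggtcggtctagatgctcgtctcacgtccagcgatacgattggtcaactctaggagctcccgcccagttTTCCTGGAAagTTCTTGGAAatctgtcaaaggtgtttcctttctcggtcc

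The motif content differed among the 3. The Socs1 window held 2 ISRE-type matches, at positions -83 to -74 and -77 to -68 counted from the start site, which overlap each other, and no GAS match. The Socs3 window held 1 GAS match, TTCTTAGAA, at -154 to -146. The Cish window held 2 GAS matches in tandem, TTCCTGGAA at 1 to 9 and TTCTTGGAA at 12 to 20, and no ISRE-type match. Of 32851 mouse promoters of the same length in the RefSeq table, 8.30% held a GAS match and 0.457% more than 1, and 3.44% held an ISRE-type match and 0.225% more than 1. The windows also differed in CG content, with 31 CG dinucleotides and 73.3% GC at Socs3, 18 and 63.3% at Socs1, and 11 and 53.3% at Cish, beside medians of 7 and 52.7% over all promoters. A match is a run of letters and no evidence of binding. The Socs3 start used by RefSeq for this window lies inside the annotated gene, downstream of its outermost end.

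**Figure D1:**
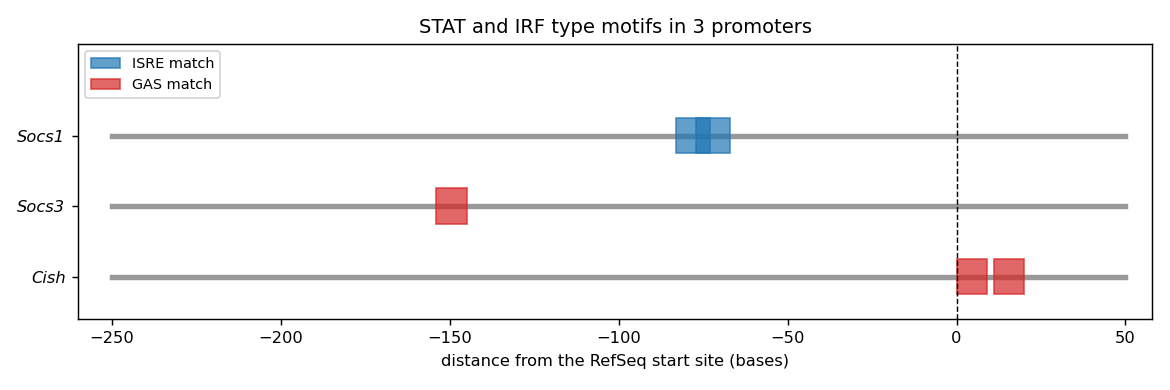
Positions of GAS matches (red) and ISRE-type matches (blue) in the 3 promoters, in bases from the RefSeq start site (dashed line), with each 300-base window drawn as a grey bar. Socs1 carried the ISRE-type pair upstream of the start, Socs3 1 GAS match farther upstream, and Cish 2 GAS matches just after the start.

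Levels are given as normalised tags per window, over windows read as 6000 bp, a length that is inferred and not stated. At that length 1 recovered tag is worth about 1 normalised tag in most libraries. The step between values is fitted in each library, so its fit does not test the length. Equal windows allow levels of 1 mark to be set side by side between genes, while levels of different marks depend on different antibodies. The worth of 1 tag lay between 0.989 and 1.03 normalised tags except in H2A119Ub of unselected treated cells, the shallowest library, at 1.32. Epithelial markers carried H3K4me3 in these cells: 8 of 9 lay above the mark's median window, and their summed level was 5800 to 7100 tags in the 3 libraries. Of leukocyte markers 2 of 8 did (summed level 498 to 560), of fibroblast and endothelial markers 3 of 8 (659 to 726), and of acinar markers 1 of 5 (176 to 272). Col1a2 was at 0 in all 3 libraries, Dcn in both IFN-gamma libraries and Ptprc, the leukocyte marker CD45, in that of unselected treated cells. Their part in the results below was not tested.

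The 5 inhibitors showed 3 chromatin patterns. Socs1 and Socs3 had very high H3K4me3 and H3K27Ac, high H2A119Ub, and H3K27me3 somewhat above the median window but far below that of Cish and Usp18. Ptpn2 had intermediate H3K4me3 and H3K27Ac and little of either Polycomb mark, the pair made up of H3K27me3, laid by PRC2, and H2A119Ub, laid by PRC1. Cish and Usp18 had modest H3K4me3, low H3K27Ac and high levels of both Polycomb marks. These patterns were present in all 3 cell states, and the plot of levels shows every value with its counting interval.

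**Figure D2:**
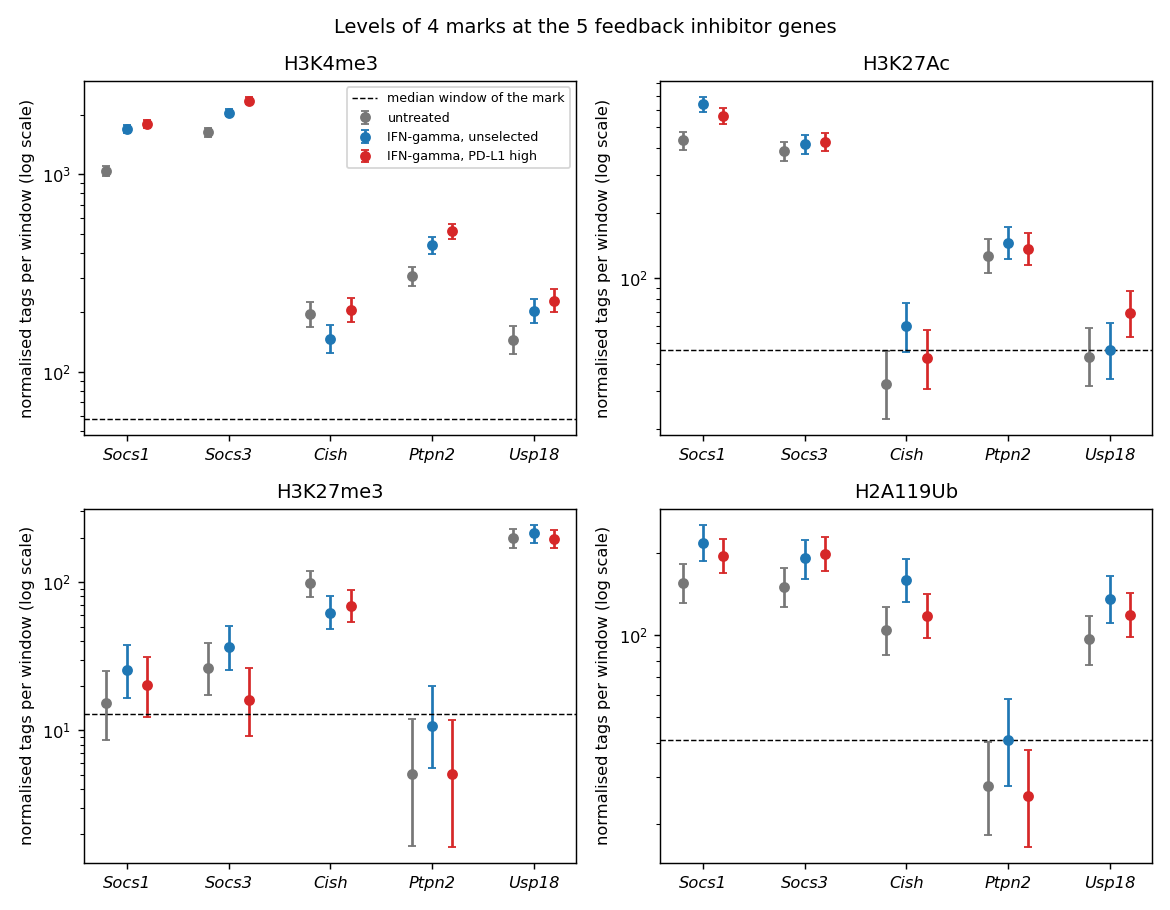
Normalised tags per window (log scale) of the 4 marks at the 5 genes in untreated cells (grey), unselected treated cells (blue) and PD-L1 high cells (red), 1 library each, with exact Poisson 95% intervals of the recovered tags and the median window of the mark dashed. H3K4me3 ran from 145 tags at Usp18 in untreated cells to 2358 at Socs3 in PD-L1 high cells, while in H3K27me3 Usp18 was highest at 195 to 213 tags.

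Socs1 (chromosome 16, 10783808 to 10785536) had more H3K4me3 and H3K27Ac tags in both IFN-gamma libraries than in the untreated one, before centring. Its H3K4me3 was 1036 tags in untreated cells, 1693 in unselected treated cells and 1789.7 in PD-L1 high cells. Only 4.92%, 2.02% and 1.78% of windows were above it in these libraries, so its rank was higher in both IFN-gamma libraries. After centring on the median ratio of kept windows, the log2 ratio of unselected treated to untreated cells was 0.47 (95% interval 0.36 to 0.59), with 1.45% of kept windows above it. The median ratio of windows in the same decile by level was 0.10. The ratio of PD-L1 high to untreated cells was 0.48 (0.37 to 0.59), which shares the untreated library with the first, and that of PD-L1 high to unselected treated cells was 0.01 (-0.09 to 0.10). The last interval spans 0, so these libraries could not be told apart at this depth. Without centring, the ratio of unselected treated to untreated cells was 0.71, past 1.5-fold.

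Acetylation at Socs1 was among the highest of all genes. H3K27Ac was 435 tags in untreated cells, 638 in unselected treated cells and 565 in PD-L1 high cells, with 0.870%, 0.423% and 0.533% of windows above. The untreated library was the lowest of the 3, and the centred log2 ratio of unselected treated to untreated cells was 0.31 (0.14 to 0.50), with 17.7% of kept windows above. That of PD-L1 high to untreated cells was 0.17, with an interval across 0 (-0.006 to 0.36). H3K27me3 was 15.2, 25.3 and 20.1 tags in the same order, with 46.5%, 36.5% and 31.2% of windows above, and the interval of its ratio to untreated cells reached from -0.47 to 1.54. H2A119Ub was 155, 219 and 195 tags, within the top 3.96%, 2.52% and 2.58% of windows. Its log2 ratio of unselected treated to untreated cells was 0.23 (-0.07 to 0.58). Tnp2, a gene of sperm chromatin whose start lies 3119 bases away, had 416, 470.3 and 548 H3K4me3 tags and 254, 444 and 405 H3K27Ac tags. Prm3, with its start 5378 bases away, had 53.8, 28.8 and 28.2 H3K4me3 tags. Windows of these neighbours may share tags with Socs1, since the labels do not give the placement of the windows, and their part in the Socs1 levels was not tested.

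Socs3 (chromosome 11, 117966079 to 117970336) had the highest H3K4me3 of the 5 genes in every library. The level was 1629.9 tags in untreated cells, 2051 in unselected treated cells and 2358 in PD-L1 high cells, and 0.733%, 0.733% and 0.416% of windows were above. Its rank thus hardly differed between untreated and unselected treated cells. The centred log2 ratio of those libraries was 0.10 (0.005 to 0.19), equal to the median of its level decile. PD-L1 high over unselected treated cells gave 0.13 (0.04 to 0.21), with a level-decile median of -0.04, and PD-L1 high over untreated cells gave 0.22 (0.13 to 0.31).

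H3K27Ac at Socs3 was 387, 417 and 429 tags in untreated, unselected treated and PD-L1 high cells, the narrowest spread of this mark among the 5 genes. All 3 H3K27Ac ratios had intervals reaching across 0, and the one of unselected treated to untreated cells was -0.13 (-0.33 to 0.08) when centred and 0.11 without centring. H3K27me3 was 26.4, 36.5 and 16.1 tags, with 32.3%, 29.0% and 35.2% of windows above. The PD-L1 high library was the lowest, with a centred log2 ratio to unselected treated cells of -0.83 (-1.87 to -0.03), or -1.09 without centring. This interval rests on 16 recovered tags against 36, and 37.0% of the kept windows of that comparison were at least 1.5-fold apart. The median ratio of windows in the same level decile was -0.38. H2A119Ub at Socs3 was 150.25, 192 and 199 tags, and its ratio of PD-L1 high to untreated cells was 0.30 (0.005 to 0.64).

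Cish (chromosome 9, 107296659 to 107302784) was the only one of the 5 to have its lowest H3K4me3 in the library of unselected treated cells. H3K4me3 was 195 tags in untreated cells, 147 in unselected treated cells and 206 in PD-L1 high cells. The centred log2 ratio of unselected treated to untreated cells was -0.64 (-0.96 to -0.33), and -0.40 without centring. In that comparison 6.55% of kept windows were at least 1.5-fold apart, 4.79% had a ratio below that of Cish, and windows of its level decile had a median of -0.20. PD-L1 high over unselected treated cells was 0.41 (0.11 to 0.73), with 1.51% of kept windows above. Against untreated cells the PD-L1 high library was at -0.23 (-0.51 to 0.06), a sign that turned to 0.08 without centring and 0.06 with no filter on low values, so the untreated and PD-L1 high levels could not be told apart at this depth.

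The Polycomb marks at Cish were well above the median window. H3K27me3 was 98.0, 62.3 and 69.4 tags in untreated, unselected treated and PD-L1 high cells, with 13.9%, 20.1% and 16.8% of windows above. The untreated library was thus the highest. The centred log2 ratio of unselected treated to untreated cells was -0.86 (-1.34 to -0.38), where 27% of kept windows were at least 1.5-fold apart and 6.66% had a lower ratio. H2A119Ub was 104, 159 and 118 tags, highest in unselected treated cells, with a ratio to untreated cells of 0.34 (-0.01 to 0.77) that rests on the shallower library. H3K27Ac lay below the mark's median window on average, at 32.5, 59.8 and 42.5 tags, and its ratios were not counted.

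Ptpn2 (chromosome 18, 67665501 to 67724632), the phosphatase, had H3K4me3 of 305 tags in untreated cells, 436 in unselected treated cells and 514 in PD-L1 high cells. Both IFN-gamma libraries were above the untreated one. The centred log2 ratio was 0.28 (0.07 to 0.50) for unselected treated over untreated cells and 0.44 (0.24 to 0.65) for PD-L1 high over untreated cells, which use the same untreated library. Of kept windows, 2.38% were above the latter. The PD-L1 high to unselected treated ratio was 0.16 (-0.02 to 0.35). Acetylation did not follow the order of H3K4me3: H3K27Ac was 127, 146 and 137 tags, and its 3 centred ratios lay between -0.10 and -0.04 with intervals across 0, those against untreated cells turning positive without centring (0.19 and 0.10). H3K27me3 was 5.08, 10.6 and 5.03 tags and H2A119Ub 27.8, 40.9 and 25.6 tags. Both Polycomb marks were below their filter, and with 5 to 11 recovered H3K27me3 tags no difference was detectable at this depth.

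Usp18 (chromosome 6, 121245906 to 121270917) had H3K27me3 of 198 tags in untreated cells, 213 in unselected treated cells and 195 in PD-L1 high cells. It was the highest of the 5 genes in this mark in every library, and 7.95%, 8.58% and 9.25% of all windows were above it. Its 3 centred ratios lay between -0.11 and 0.13, each with an interval across 0 and each of a sign that turned without centring. The median of its level decile was 0.003 for unselected treated over untreated cells. It was 0.34 for PD-L1 high over unselected treated cells and 0.43 for PD-L1 high over untreated cells. Of that decile, 31.2%, 18.8% and 13.9% had a lower ratio than Usp18 in the same order. H3K4me3 was 145 tags in untreated cells, 202 in unselected treated cells and 229.5 in PD-L1 high cells. The log2 ratio was 0.24 (-0.07 to 0.56) for unselected treated over untreated cells and 0.34 (0.04 to 0.66) for PD-L1 high over untreated cells, where windows of its level decile had medians of -0.20 and -0.17. H3K27Ac was 43.1, 46.6 and 68.85 tags, close to the mark's median window of 46.3. The PD-L1 high library was the highest, with a ratio to unselected treated cells of 0.56 (0.05 to 1.18) and 2.24% of kept windows above. The filter uses the mean of the 3 libraries, 52.85 tags here, and the window passed it only because the PD-L1 high library is in that mean. Its rank among kept windows is therefore no independent support for the ratio. H2A119Ub was 96.2, 136 and 118.6 tags, and its ratios had intervals across 0.

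The order of the 5 genes depended on the mark. In untreated cells H3K4me3 placed Socs3 first, then Socs1, Ptpn2, Cish and Usp18, and the counting intervals of Cish (169 to 224 tags) and Usp18 (123 to 171) overlapped. In unselected treated cells Usp18 (176 to 232) stood above Cish (124 to 173), and in PD-L1 high cells their intervals overlapped again. H3K27Ac put Socs1 first in every library, with an interval that overlapped that of Socs3 in untreated cells (394 to 477 and 349 to 427) but not in either IFN-gamma library. Cish and Usp18 had overlapping H3K27Ac intervals in all 3 libraries. H3K27me3 put Usp18 first and Cish second throughout, while the intervals of Socs1 and Socs3 overlapped in each library. For H2A119Ub the intervals of Socs1 and Socs3 overlapped in each library, and Ptpn2 was the lowest.

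Differences between states at the inhibitors were small in fold. Of the 60 ratios of 5 genes, 4 marks and 3 comparisons, 51 were above the filter on low levels, which leaves out H3K27Ac at Cish and both Polycomb marks at Ptpn2. With centring none of the 51 reached 2-fold and 3 reached 1.5-fold, all lower (Cish H3K4me3, Cish H3K27me3 and Socs3 H3K27me3, above), while without centring 6 were past 1.5-fold higher and 3 lower, so this split rests on the scaling. A counting interval that left out 0 was found for 15. The share of all kept windows with such an interval is not given, and windows with many tags have narrow intervals. This count is therefore no result about the inhibitors. Of the 51, 6 lay outside the 5th to 95th percentile of kept windows, a range that leaves out 10% of windows by construction: 5 were above it (H3K4me3 of Socs1 in both comparisons with untreated cells, of Ptpn2 between PD-L1 high and untreated cells, of Cish between PD-L1 high and unselected treated cells, and H3K27Ac of Usp18 between the same libraries) and 1 below it (H3K4me3 of Cish in unselected treated over untreated cells). The H3K27Ac window of Usp18 passed the filter only through its PD-L1 high library, so its place in this count is no independent support. Each of the 3 comparisons of a mark shares a library with the others, so they are not independent of each other. The median log2 ratio of unselected treated to untreated cells over the kept windows was 0.22 to 0.24 in the 4 marks, and ratios are given relative to it. Over all windows the median level did not stand higher in each mark, at 66.7 tags in untreated and 52.6 in unselected treated cells for H3K4me3. If scaled to 10 M tags, 71.0%, 84.6% and 88.3% of H3K4me3 tags lay in windows in untreated, unselected treated and PD-L1 high cells. Windows at 0 numbered 2167, 3203 and 3377. Centring on 1 median leaves a shift by level: the first H3K4me3 comparison had medians of -0.20 in the level decile of Cish and Usp18 and 0.10 in that of Socs1 and Socs3.

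For H3K4me3 all 5 genes were above the filter. In unselected treated over untreated cells 0 of 5 were past 2-fold, beside 1.39% of kept windows, and 1 of 5 past 1.5-fold, beside 6.55%. In PD-L1 high over unselected treated cells 0 of 5 were past either, beside 0.0862% and 1.17%, and in PD-L1 high over untreated cells again 0 of 5, beside 2.56% and 7.52%. In the last comparison 3 of 5 were past 1.5-fold higher without centring, Socs1 (0.79), Ptpn2 (0.75) and Usp18 (0.65), and the same 3 with no filter on low values. The 7.52% is no background for these, since it was counted with centring, which takes 0.31 off every ratio of this comparison. Shares of all windows past 1.5-fold under these 2 settings are not given, so the 3 of 5 is no result about the inhibitors. The median ratio of the 5 was 0.24, 0.13 and 0.34 in these comparisons, beside 0 over all kept windows by construction. Of the 5, 4 (all but Cish) were above 0 in both comparisons with untreated cells. This count is not corrected for the shift by level between the H3K4me3 libraries.

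For H3K27Ac 4 of the 5 were above the filter, and 0 of 4 reached 1.5-fold in any comparison when centred. Usp18 in PD-L1 high over untreated cells was at 0.42 when centred (-0.12 to 1.04, across 0), with 12.2% of kept windows above. This ratio was past 1.5-fold at 0.62 without centring and at 0.70 with quantile normalization. The background was 0.894% of kept windows past 2-fold and 9.83% past 1.5-fold in unselected treated over untreated cells. It was 0.274% and 4.25% in PD-L1 high over unselected treated cells and 2.16% and 13.2% in PD-L1 high over untreated cells. Medians of the 4 were -0.09, 0.02 and 0.06.

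For H3K27me3 4 of the 5 were above the filter and 0 of 4 reached 2-fold, against a wide background. In unselected treated over untreated cells 1 of 4 (Cish) was past 1.5-fold, beside 8.30% of kept windows past 2-fold and 27% past 1.5-fold. In PD-L1 high over unselected treated cells 1 of 4 (Socs3) was, beside 14.0% and 37.0%, and in PD-L1 high over untreated cells 0 of 4, beside 11.4% and 38.0%. Shares of 1 in 4 are near these backgrounds and are no result about the inhibitors. The 0 of 4 in PD-L1 high over untreated cells depended on the setting. Socs1 was past 1.5-fold higher with quantile normalization (0.82) and with no filter on low values (0.67). Socs3 was past 1.5-fold lower without centring (-0.65), and Cish in the upper quartile of windows (-0.66). Shares of all windows past 1.5-fold under these settings are not given. For H2A119Ub 0 of 4 reached 1.5-fold, beside 1.30% and 12.4%, 0.878% and 11.3%, and 0.533% and 8.44% of kept windows past 2-fold and 1.5-fold in the 3 comparisons in the same order.

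**Figure D3:**
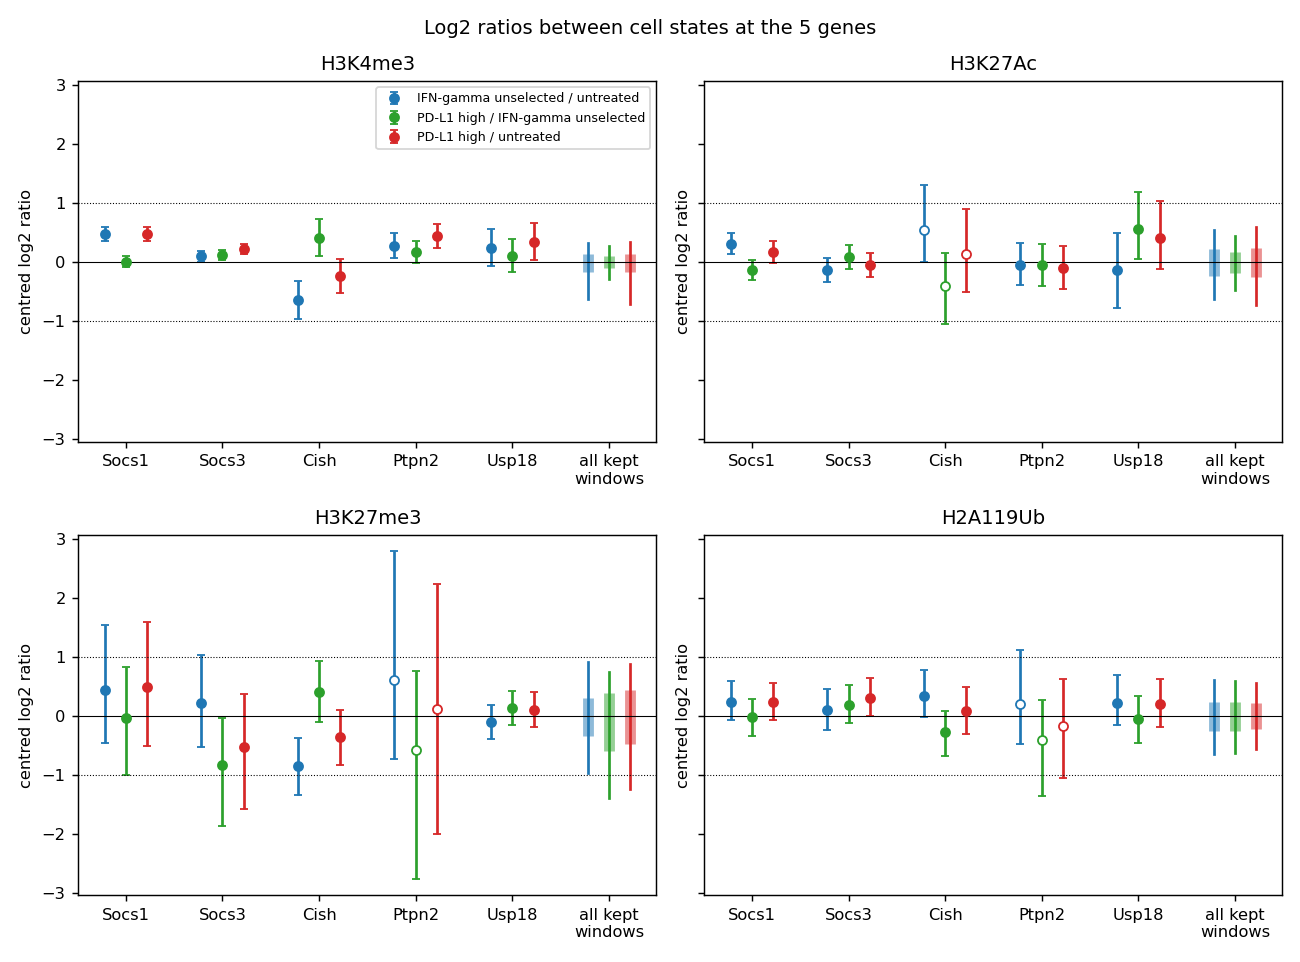
Centred log2 ratios between cell states at the 5 genes for the 4 marks, with 95% counting intervals as error bars, open circles for members below the filter and dotted lines at 2-fold; at the right, thick bars give the 25th to 75th and thin lines the 5th to 95th percentile of all kept windows. No filled point passed 2-fold, and the lowest were Cish in H3K4me3 (-0.64) and H3K27me3 (-0.86) and Socs3 in H3K27me3 (-0.83).

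The balance of activating and Polycomb marks separated Cish and Usp18 from the others. H3K4me3 tags per H3K27me3 tag were 0.736 at Usp18 in untreated cells, 0.948 in unselected treated cells and 1.18 in PD-L1 high cells. At Cish they were 1.99, 2.36 and 2.97. These ratios are not scaled between libraries. Of windows above the H3K4me3 filter, 4.19%, 5.59% and 5.89% had a lower balance than Usp18 in the 3 states and 7.17%, 8.68% and 8.73% a lower one than Cish, so both stood among the lowest in every state. Socs1 had 68.0, 66.8 and 89.0, Socs3 61.7, 56.3 and 147, and Ptpn2 60.0, 41.0 and 102, where the H3K27me3 counts in the denominators were 5 to 36 tags. In untreated cells 266 windows (1.04%) had both as much H3K4me3 and as much H3K27me3 as Usp18, and 424 (1.66%) as much of both as Cish. Fewer still, 114 (0.447%), had as much of both as Socs3, so this count does not set Cish and Usp18 apart. For Socs1 it was 872 (3.42%) and for Ptpn2 7955 (31.2%). Such a ratio joins 2 antibodies and orders genes within a state; it does not say that both marks sit on the same allele or in the same cell.

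**Figure D4:**
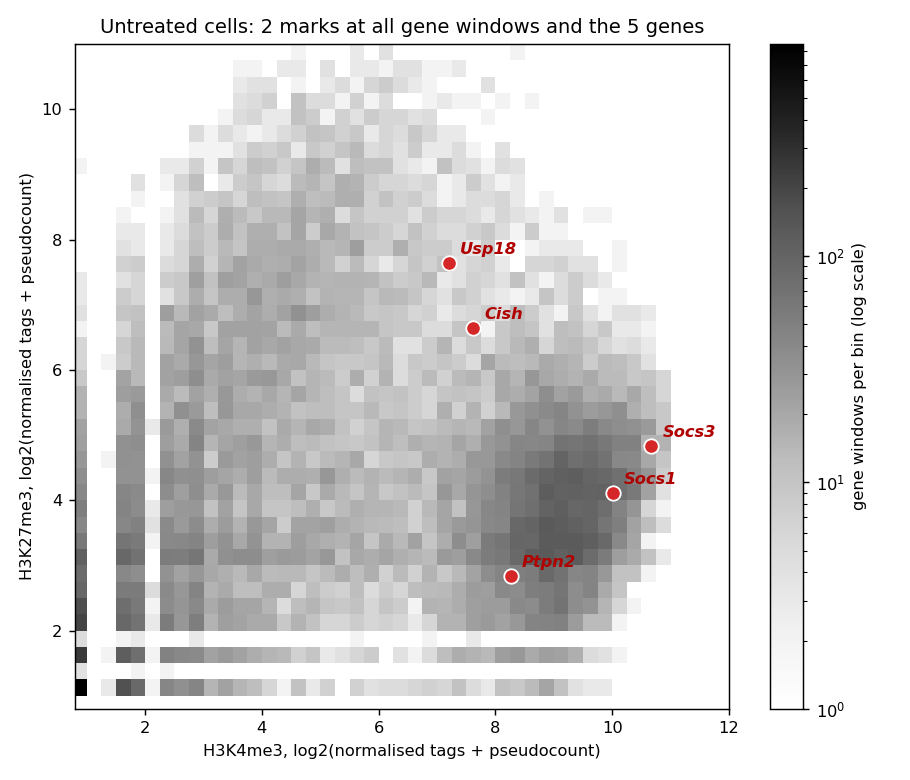
H3K27me3 against H3K4me3 in untreated cells, each as log2 of normalised tags plus the mark's pseudocount, with all gene windows as grey bins (darker bins hold more windows, log scale) and the 5 genes in red. Socs1 and Ptpn2 lay in the cloud of windows with high H3K4me3 and low H3K27me3 and Socs3 at its edge, while Cish and Usp18 lay between the clouds, with 98.0 and 198 H3K27me3 tags.

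Socs1 and Socs3 carried less H3K27me3 than most windows as rich in H2A119Ub. The top 5% of windows in H2A119Ub in untreated cells began at 146 tags and comprised 1290 windows, with Socs1 and Socs3 among them. Their median H3K27me3 was 140.2 tags, against 15.2 at Socs1 and 26.4 at Socs3, and 170 of them (13.2%) had no more H3K27me3 than Socs3. Their median H3K4me3 was 196 tags, and 15.3% had at least as much as Socs1.

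Among the lists of other pathway genes, the interferon-inducible genes had the most members past 2-fold in H3K4me3. Of the other SOCS family, Socs2, Socs4, Socs5, Socs6 and Socs7, 0 of 5 passed 2-fold in H3K4me3 in unselected treated over untreated cells, with a median log2 ratio of 0.01. Socs5 was the highest of them in untreated cells, at 1503 H3K4me3 tags and 1777 and 1854.5 in the IFN-gamma libraries, above Socs1 in untreated cells (1036 tags) and closer to it in both IFN-gamma libraries, with a ratio of 0.01 (-0.09 to 0.11). Of 9 further inhibitors, which include the PIAS proteins and the phosphatases Ptpn1, Ptpn6 and Ptpn11, 0 of 9 passed 2-fold, with a median of 0.05. Sh2b3, an adaptor that restrains JAK2, was the highest of them in untreated cells at 1264 tags.

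Of the 9 JAK kinases and STAT factors reported here and above the filter, which are not the whole family, 0 passed 2-fold, with a median of 0.14. Stat3 was the highest of the list in untreated cells at 1234 tags. Of receptors that signal through JAK-STAT 0 of 13 passed 2-fold (median 0.07), and Il4ra was the highest in untreated cells at 980.2 tags. Of IRF factors 1 of 5 was higher (median 0.16): Irf1 had 611, 1537 and 1519 tags, a ratio of 1.10 (0.96 to 1.24), while Irf2 had the highest untreated level of this list at 1077 tags.

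The ISG15 pathway, whose modification Usp18 reverses, had 0 of 4 genes past 2-fold in H3K4me3 and a median of 0.32. Isg15 itself had 282, 529 and 511 tags, a ratio of 0.67 (0.47 to 0.89) for unselected treated over untreated cells. Like Usp18 it carried H3K27me3, at 69.1, 82.1 and 72.9 tags. Ube2l6, the conjugating enzyme, had the highest untreated H3K4me3 level of this list at 454 tags, and Uba7, the activating enzyme, had 61.9 H3K27Ac tags in untreated and 158 in PD-L1 high cells, a ratio of 1.08. Of 18 other interferon-inducible genes 9 passed the filter, and 5 of these had H3K4me3 past 2-fold higher, beside 1.39% of kept windows past 2-fold in either direction. The filter uses the mean of the 3 states, and Gbp5 passed through the IFN-gamma libraries alone, with 47.8 tags in untreated cells; of the 8 whose untreated level reached the filter, 4 were past 2-fold higher. Over all 18 genes, low levels included, 8 were past 2-fold higher and 1 lower. The higher ones included the GTPases Gbp3 (2.59), Igtp (2.59), Gbp5 (2.33) and Gbp2 (1.88), while Irgm1 had the highest untreated level at 1069.8 tags. Cd274, which encodes PD-L1, had 229 tags in untreated cells, 649.6 in unselected treated cells and 786 in PD-L1 high cells, a ratio of 1.26 (1.05 to 1.49) in the first comparison. The ratio of Socs1 in the same comparison was 0.47, from an untreated level of 1036 tags.

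**Figure D5:**
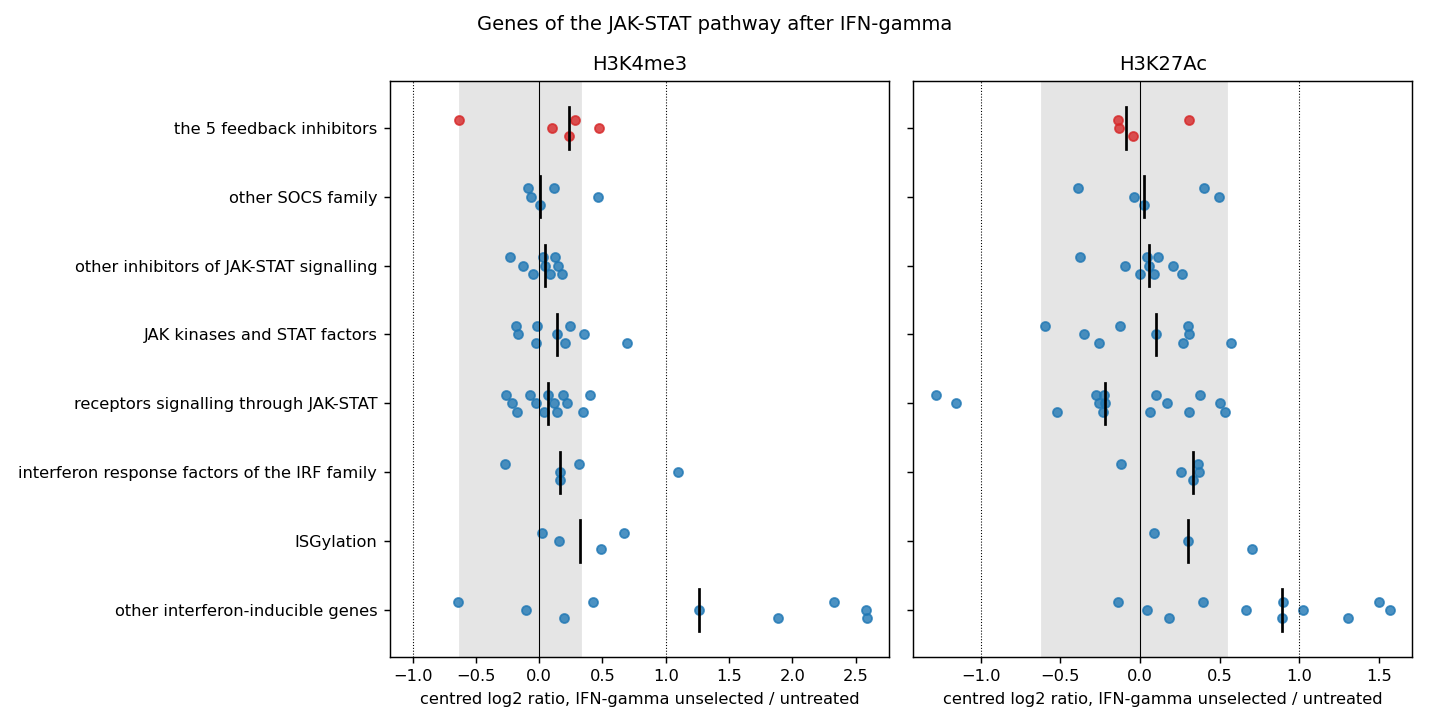
Centred log2 ratios of unselected treated to untreated cells in H3K4me3 (left) and H3K27Ac (right), 1 point for each reported gene above the filter, by list, with list medians as black bars, the 5th to 95th percentile of all kept windows in grey and dotted lines at 2-fold. The 5 inhibitors (red) ran from -0.64 to 0.47 in H3K4me3, while 5 of the 9 plotted interferon-inducible genes were past 2-fold higher, 1 of them (Gbp5) above the filter only through its IFN-gamma libraries.

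In H3K27me3, where 8.30% and 14.0% of kept windows passed 2-fold in the comparisons named here, some genes of these lists did so too. Of the further inhibitors, Trim28 was at 1.12 in unselected treated over untreated cells and -1.27 in PD-L1 high over unselected treated cells. Sh2b3 and Ptpn6 were at -1.18 and -1.94 in the latter, with only 8.05 and 5.03 tags in the PD-L1 high library. Stat2 was at -1.92 there, with 4.02 tags in the PD-L1 high library. Among interferon-inducible genes Igtp was at -2.15 and Gbp5 at -1.75 in unselected treated over untreated cells, Gbp5 having 116, 39.0 and 26.15 tags, while Gbp2 was past 2-fold the other way at 1.01, with 20.8, 51.7 and 29.2 tags. Ube2l6 was at 1.04 in the same comparison. Igtp had 11.1 tags in the unselected treated library. Counting intervals are not given for these list genes, and at such low counts they would be wide. The H3K27me3 of Usp18, at 198, 213 and 195 tags, were within 1.5-fold of each other in all comparisons.

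Over the 12 libraries, likeness to each inhibitor was measured as the Euclidean distance between log2 profiles of the 4 marks in the 3 states. Socs1 and Socs3 were 1.45 apart, Cish and Usp18 2.70, and all other pairs 6.60 to 9.52, beside a median distance to all windows of 8.05 to 11.7. Nearest to Socs1 were Cdk2ap2 (0.853), Pitpnm1 (1.09) and Rnf213 (1.16), and nearest to Socs3 were Ehd1 (0.696), Mrpl41 (0.805) and Pnpla7 (0.809). Mrpl41 and Pnpla7 themselves had close values, such as 1346 and 1339.7 H3K4me3 tags in untreated cells. Neighbours of an inhibitor were skipped, but genes neighbouring each other were not. Windows named as nearest may therefore share tags, which was not tested. Nearest to Cish were Endod1 (1.02), Icosl (1.23) and Ppp1r14a (1.29), to Ptpn2 Bnip3l (0.636), Cyth3 (0.672) and Smad2 (0.742), and to Usp18 Klhl36 (0.888), Sema7a (0.942) and Stag3 (1.06). The 3 genes nearest to Usp18 had 174 to 194 H3K27me3 tags in untreated cells, beside 198 at Usp18.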

How the data were processed

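The deposited values are a signal for every gene in every library, which the authors had already normalised. Per the submitters' processing notes, mm10 was the build and the tools were Bowtie2 2.4.2, MACS2 2.2.7.1 and HOMER, whose roles are not stated. Nor are window placement, duplicate removal or scaling. Values times 6000 fell on whole multiples of a library-specific step, read as 0.5 tag, for 100% of values within 10% of a step. Because the step is fitted, this share does not test the window length. If the scaling was to 10 M tags, the shallowest library (H2A119Ub, unselected treated cells) had 7.59 M and the others 9.72 to 10.1 M. Symbols of 25098 windows (98.4%) matched RefSeq GRCm38.p6, which gave coordinates and promoters.

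To each value the 10th percentile of the mark's values above 0 was added (1.99 tags for H3K4me3, 5.06 for H3K27Ac, 2.03 for H3K27me3, 8.18 for H2A119Ub), so that ratios of low windows are understated. Windows averaging at least the mark's median window were kept (57.6, 46.3, 12.8 and 41.06 tags; 12754 or 12757 windows), and log2 ratios were taken relative to the median kept window. Ratios past 2-fold and 1.5-fold were counted. Intervals (95%) are exact Poisson for levels and Clopper-Pearson for ratios of recovered tags, the latter without the pseudocount. They compare libraries rather than conditions and reflect counting error alone; without molecular identifiers, reads need not be separate molecules. The steps were run on simulated data with counting error only and changes planted in both directions. These data held no shift between libraries, so the run cannot check the scaling. Named are every inhibitor in every library, genes of 7 pathway lists past 2-fold (at most 4 per list and comparison, largest first) or with the highest untreated H3K4me3, the 3 nearest windows by profile, and genes starting within 6000 bases. Of these, the text gives the H3K4me3 calls in full and of other marks a choice made after the values were seen, as were Isg15 and Cd274. Members and lists were chosen with earlier results of these data known. 1 gene of the pathway lists is not reported here and is left out of their counts, medians and plots. Alternatives in centring, pseudocount and filter (6 in all) were tried. Python 3.11.15, numpy 2.4.6, pandas 2.3.3, scipy 1.17.1 and matplotlib 3.10.9 were used.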

Additional observations from a re-analysis of the deposited data

How the results depend on the processing

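The 51 ratios of the inhibitors above the filter were recomputed under 6 alternatives. The number of inhibitors past 2-fold stayed at 0 in each comparison and alternative with 1 exception: without centring, 1 was past 2-fold in H3K27me3 of PD-L1 high over unselected treated cells (Socs3, -1.09), by the shift of -0.26 that centring removes. The number past 1.5-fold, 0 higher and 3 lower, depended more on the setting, with 6 and 3 without centring, 2 and 1 with quantile normalization, 1 and 3 with 0.5 times and 0 and 3 with 4 times the pseudocount, 5 and 2 with no filter, and 0 and 2 in the upper quartile. Ratios stayed within their counting interval for 41 of 51 without centring, 49 with quantile normalization, 51 with 0.5 or 4 times the pseudocount, 45 with no filter on low values, and 32 of 33 in the upper quartile of windows. Signs changed for 9, 4, 0, 0, 8 and 2 of them, all of ratios between -0.23 and 0.13. Counts over all windows depended more on the setting. Scaling moved the share of higher calls by over 10 percentage points in 11 of 12 comparisons without centring and in 8 with quantile normalization: in H3K4me3 of unselected treated over untreated cells 46 windows were higher and 131 lower, 66 and 23 without centring, and 78 and 13 with quantile normalization. With no filter this comparison had 412 higher and 3245 lower windows, and in the upper quartile 6 and 1; the total moved by over 1.5 times in all 12 comparisons under both of these filters, in 10 with 4 times the pseudocount, in 6 without centring, in 6 with quantile normalization and in 2 with 0.5 times the pseudocount. No paired analysis was possible because each group holds 1 library, which also left no replicate to omit. Depth limits the low marks most: at 5 recovered tags, as for H3K27me3 at Ptpn2, the interval of the level ran from 1.65 to 11.9 tags.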
